A study of Mus musculus with 8 samples.

Results

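The proximal 21 Mb of mouse chromosome 1, from 3 to 24 Mb on mm9, formed a block of closely spaced anti-Brdt islands in wild-type germ cells. An island is a run of 200-base windows in which ChIP reads cluster above a control library. All islands whose start lay between 3 and 24 Mb were taken: 2130 of 201828 in Brdt BD1del round spermatids, 1427 of 112671 in Brdt BD1del spermatocytes, 2416 of 74968 in wild-type round spermatids and 2165 of 36615 in wild-type spermatocytes. That made 8138 of the 426082 islands of the 4 lists. The limits of the block were chosen by covered share, mainly of the wild-type lists, so the high coverage of the block itself is a description and not a finding. Chromosome 1 from 24 to 45 Mb, a stretch of the same length, served as flank and held 1989, 1260, 826 and 399 islands in the same order.

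Brdt belongs to the BET proteins, whose paired bromodomains bind acetylated histone lysines, and is made in the testis. In spermatogenesis it acts from meiosis to the compaction of the spermatid genome, and deletion of its first bromodomain (BD1) blocks the formation of fertile sperm in mice. Mouse chromosomes have the centromere at one end, and mm9 numbering starts there, so the block abuts the pericentromeric heterochromatin of chromosome 1. Genes listed in order from this end in the RefSeq table of GRCm38 include Rp1, Sox17, Tcea1, Rb1cc1, Mybl1, Cops5, Cspp1, Prdm14, Eya1, Terf1, Stau2 and Mcm3. Mybl1 encodes A-MYB, a transcription factor of male meiosis. Terf1 encodes a telomere protein, Mcm3 a subunit of the replicative helicase and Prdm14 a regulator of germ cell formation. The table is on another build than the islands, so no island was assigned to a gene and no sequence of an island is shown.

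Binding was measured by ChIP-seq with an anti-Brdt antibody in post-meiotic round spermatids and meiotic spermatocytes of mice, once for Brdt BD1del and once for wild type. Wild-type mice were C57BL/6, with germ cell fractions of 10 mice pooled. The strain and pooling of the BD1del samples are not given in the sources used here, so genotype cannot be told apart from strain background. Reads outside islands were not used, and the copy number of the 21-Mb segment was not tested. The 8 libraries were 4 ChIP and 4 input libraries, 1 per group, so no difference has a replicate error and none was tested. The lists held 7310429, 6391762, 4506707 and 6476047 ChIP reads in islands (BD1del round spermatids, BD1del spermatocytes, wild-type round spermatids, wild-type spermatocytes). Per ChIP read, the control library held 5.45, 5.64, 3.79 and 1.79 reads in the same order. The read set of the lists also differed between the genotypes, so genotype cannot be told apart from read set and depth in any comparison of BD1del with wild type.

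In wild type the block was covered by islands to several times the level of the flank, and in BD1del it was covered little more than the flank. Islands covered 14.2% of the block in BD1del round spermatids, 15.0% in BD1del spermatocytes, 37.7% in wild-type round spermatids and 47.6% in wild-type spermatocytes. In the flank the shares were 10.3%, 11.2%, 7.80% and 5.26%. The ratio of block to flank was thus 1.37 and 1.34 in BD1del, against 4.83 and 9.05 in wild type, each with round spermatids before spermatocytes. BD1del round spermatids covered 0.376 times as much of the block as wild-type round spermatids, and BD1del spermatocytes 0.314 times as much as wild-type spermatocytes. In the flank the order was the other way, with 1.32 times as much in BD1del round spermatids and 2.12 times in BD1del spermatocytes.

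The lower coverage of BD1del held for the lists as deposited, and the order of the genotypes depended on which islands were kept. The fold is the authors' ratio of ChIP reads to control reads scaled by library size. With islands of a fold of at least 2, BD1del covered more of the block than wild type, at 12.7% against 7.0% in round spermatids and 12.1% against 1.44% in spermatocytes. That order was not particular to the block. In the flank the same limit gave 9.80% against 3.78% in round spermatids and 10.0% against 0.561% in spermatocytes. With islands of an FDR of at most 1e-10, BD1del was higher in round spermatids, at 9.64% against 6.44%, and lower in spermatocytes, at 9.46% against 14%. The ratio of block to flank, by which the block was chosen, was 1.30 and 1.2 in BD1del and 1.85 and 2.57 in wild type with a fold of at least 2.

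**Figure D1:**
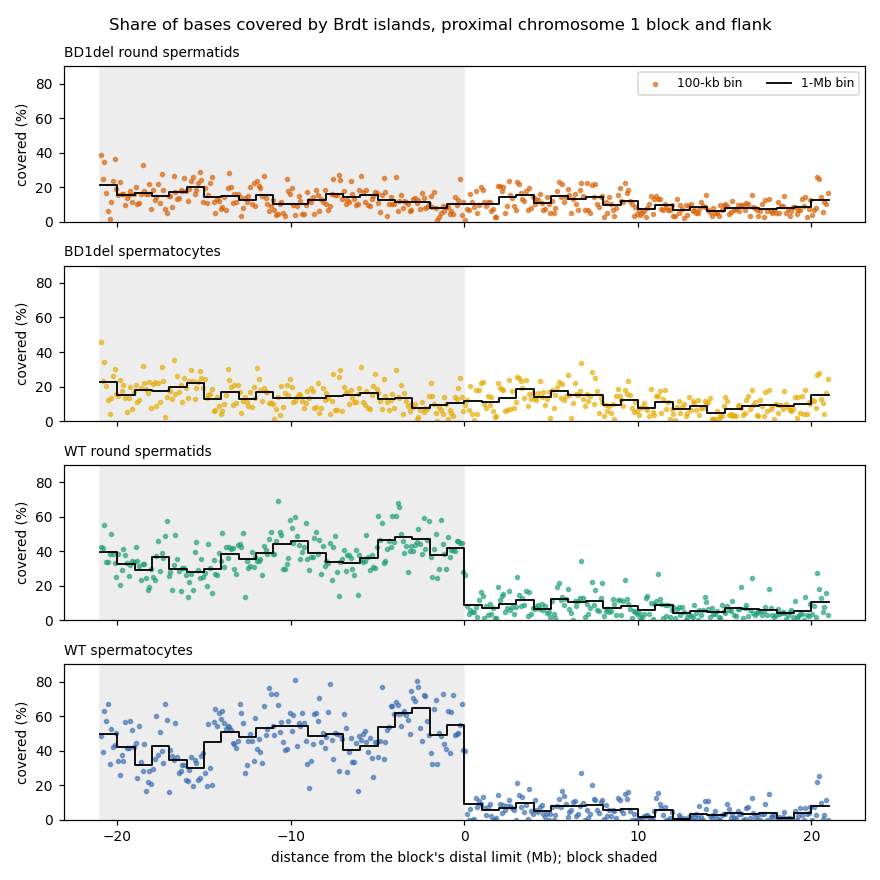
Share of bases covered by Brdt islands (y axis, %) in 100-kb bins (points) and 1-Mb bins (line) against the distance from the distal limit of the block (x axis, Mb), with the block shaded and 1 panel per list. Both wild-type lists drop at the limit, from 41.7% and 54.8% of the last megabase of the block to 9.22% and 9.0% of the next, while both BD1del lists run on at 10.1% and 10.6% before it and 10.5% and 11.6% after it.

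Within the block the coverage was broad and not carried by a few dense spots. In 210 bins of 100 kb, the covered share ran from 1.2% to 38.8% in BD1del round spermatids (median 13.4%) and from 0% to 45.8% in BD1del spermatocytes (median 14%). In wild type the range was 13.4% to 69.4% at the round spermatid stage (median 37.4%) and 16.2% to 80.8% at the spermatocyte stage (median 48.1%). Every bin of the block thus held wild-type islands of both stages. In wild-type round spermatids 124 bins were above the highest flank bin of 34.4%, and in wild-type spermatocytes 145 bins were above the highest flank bin of 39.8%. In the BD1del lists only 12 and 3 bins passed the highest flank bin. Of the flank bins, 41 held no wild-type spermatocyte island and 2 no wild-type round spermatid island, and every flank bin held some coverage in both BD1del lists. Relative to its mean, coverage was more even in the block than in the flank in every list. Coefficients of variation were 0.479, 0.512, 0.281 and 0.307 in the block and 0.519, 0.591, 0.768 and 1.09 in the flank, in the order of the lists. The mean that divides them was higher in the block. In points, the standard deviation was larger in the block in every list, at 6.81, 7.65, 10.6 and 14.6 against 5.37, 6.60, 6.00 and 5.72.

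Coverage was not uniform along the block, and the genotypes differed in which end was more covered. In 5 equal stretches from the centromere outwards, BD1del round spermatids were covered to 17.0%, 16.4%, 12.7%, 14.6% and 10.3%, and BD1del spermatocytes to 18.3%, 17.3%, 14.3%, 14.5% and 10.3%. Wild-type round spermatids were covered to 33.9%, 32.5%, 41.3%, 36.7% and 44.2%, and wild-type spermatocytes to 41.4%, 41.2%, 51.3%, 46.3% and 57.8%. The stretch next to the distal limit was therefore the least covered of the 5 in both BD1del lists and the most covered in both wild-type lists.

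The distal limit was placed by wild-type coverage, so the wild-type drop there is a description of the choice. The 20-kb bins centred 90 and 110 kb past 24 Mb were covered to 0% or 1% in all 4 lists. In BD1del such a gap was not particular to the limit. More than 100 kb before 24 Mb, the longest gaps were 73.6 kb in BD1del round spermatids and 161.6 kb in BD1del spermatocytes. The last of the dense wild-type islands ended at 24075600 in round spermatids and at 24065400 in spermatocytes. The next island started at 24147201 in round spermatids and at 24156401 in spermatocytes, after gaps of 71.6 kb and 91.0 kb. These were the first gaps longer than any that lay more than 100 kb before 24 Mb in the same list, where the longest were 52.0 kb and 67.6 kb. The stages thus ended close to each other. In the first 100 kb past 24 Mb, islands covered 1% in BD1del round spermatids, 9.40% in BD1del spermatocytes, 26.4% in wild-type round spermatids and 39.8% in wild-type spermatocytes, so the dense wild-type stretch ran slightly past 24 Mb. In the megabase after those 100 kb they covered 12.3%, 12.9%, 8.02% and 6.36%. The number of islands from 23 to 24 Mb was 82 in BD1del round spermatids, 51 in BD1del spermatocytes, 125 in wild-type round spermatids and 117 in wild-type spermatocytes. In the megabase that starts 100 kb past 24 Mb it was 103, 63, 42 and 21. In the search from 20 to 28 Mb for the point with the largest step between the megabases on either side, wild-type round spermatids gave 23.94 Mb, with 42.5% before and 8.72% after it. Wild-type spermatocytes gave 24.04 Mb, with 54.7% before and 6.84% after it. The largest steps of the BD1del lists lay at 22.28 Mb in round spermatids, 12.2% against 5.94%, and at 23.40 Mb in spermatocytes, 5.90% against 13.9%. At its other end the block began with the assembled sequence: the first islands started at 3005001, 3003201, 3005001 and 3004401.

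**Figure D2:**
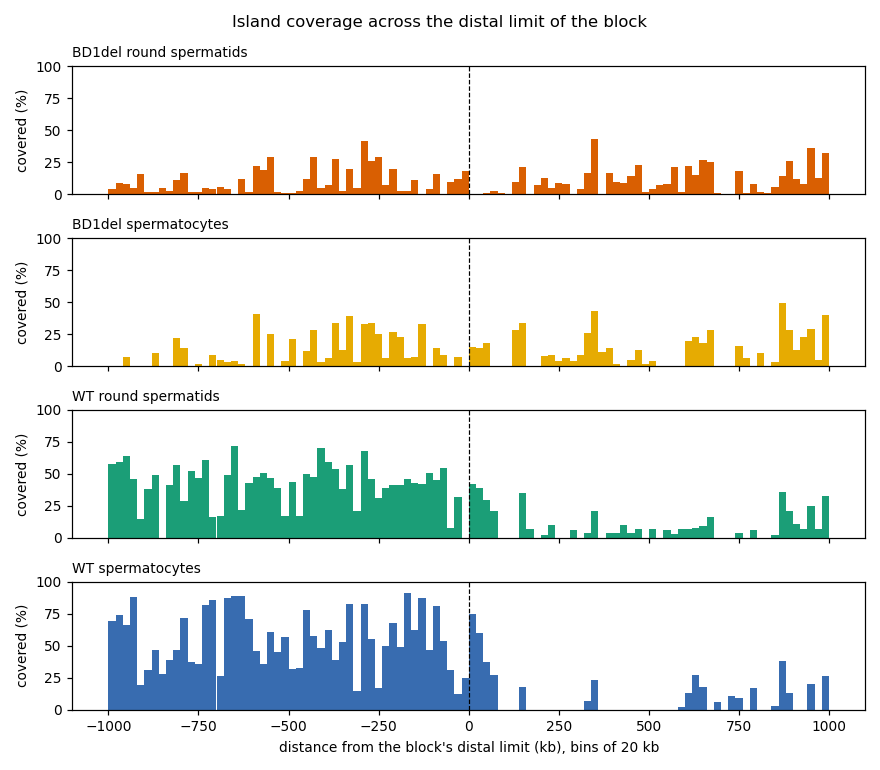
Share of bases covered (y axis, %) in 20-kb bins against the distance from 24 Mb (x axis, kb), 1 panel per list, with the dashed line at the limit used to choose the islands. Coverage in both wild-type lists continues for 80 kb past the line and is 0% in the bins centred 90 and 110 kb past it, where the BD1del lists also have 1% or less. The megabases on either side of the line differ in wild type and are close to each other in BD1del.

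The islands of the wild-type block were longer and closer together than those of the flank. The median length was 1000 bases in BD1del round spermatids, 1800 in BD1del spermatocytes, 2600 in wild-type round spermatids and 3800 in wild-type spermatocytes. In the flank it was 800, 1400, 1600 and 2200 bases. The density was 101 and 68.0 islands per Mb in the BD1del block, against 94.7 and 60 in the BD1del flank. In wild type it was 115 and 103 islands per Mb of block, against 39.3 and 19.0 per Mb of flank. The median gap between neighbouring islands of the block was 6.00 kb and 8.80 kb in BD1del and 3.40 kb and 2.80 kb in wild type. In the wild-type flank it was 16.2 kb and 28.7 kb. Islands of a single window made up 21.7% of the block islands in BD1del round spermatids, 5.12% in BD1del spermatocytes, 0.704% in wild-type round spermatids and 0.139% in wild-type spermatocytes. In the flank the shares were 29.4%, 5.63%, 5.69% and 2.26%, so the high share of BD1del round spermatids was not particular to the block. Islands of at least 10 kb numbered 2, 2, 51 and 154 in the block in the same order, and 0, 1, 1 and 1 in the flank.

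The longest islands of the wild-type lists were largely covered at the other wild-type stage and less in BD1del. The longest wild-type spermatocyte island of the block spanned 41.4 kb, from 21335001 to 21376400, with a fold of 1.53 from 3170 ChIP and 3709 control reads. It was covered to 16.9% in BD1del round spermatids, 1.93% in BD1del spermatocytes and 73.9% in wild-type round spermatids. The next spermatocyte islands, of 29.6 kb from 16100201 and of 25.6 kb from 12489001, had folds of 1.48 and 1.42 and were covered to 70.3% and 78.1% in wild-type round spermatids. In BD1del the first was covered to 2.70% in round spermatids and 7.43% in spermatocytes, and the second to 13.3% and 42.2%. In wild-type round spermatids the longest island spanned 18.8 kb, from 3193801 to 3212600, with a fold of 1.38. It was covered to 9.57% in BD1del round spermatids, 0% in BD1del spermatocytes and 94.7% in wild-type spermatocytes. The longest BD1del islands were shorter. In BD1del round spermatids the longest ran from 8698401 to 8710800, 12.4 kb at a fold of 2.77, and in BD1del spermatocytes from 3138001 to 3152200, 14.2 kb at a fold of 2.60. The first was covered to 93.5% and the second to 81.7% in the other BD1del list, and each also overlapped islands of wild type at both stages.

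Most of the additional coverage of the wild-type block lay in islands of a fold under 2. Islands with a fold under 1.5 covered 8.79% of the block and 0.788% of the flank in wild-type round spermatids, and those between 1.5 and 2 covered 21.9% and 3.24%. In wild-type spermatocytes the same classes covered 27.6% of the block against 2.57% of the flank, and 18.6% against 2.13%. Islands between 2 and 4 covered 6.82% of the block against 3.10% of the flank in wild-type round spermatids and 1.42% against 0.467% in wild-type spermatocytes. Islands with a fold of 4 or more went the other way. Wild-type round spermatids had 52 in the block and 173 in the flank, and wild-type spermatocytes 4 and 18. In BD1del the strong islands were almost as frequent in the block as in the flank, at 1140 and 1276 in round spermatids and 410 and 449 in spermatocytes.

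**Figure D3:**
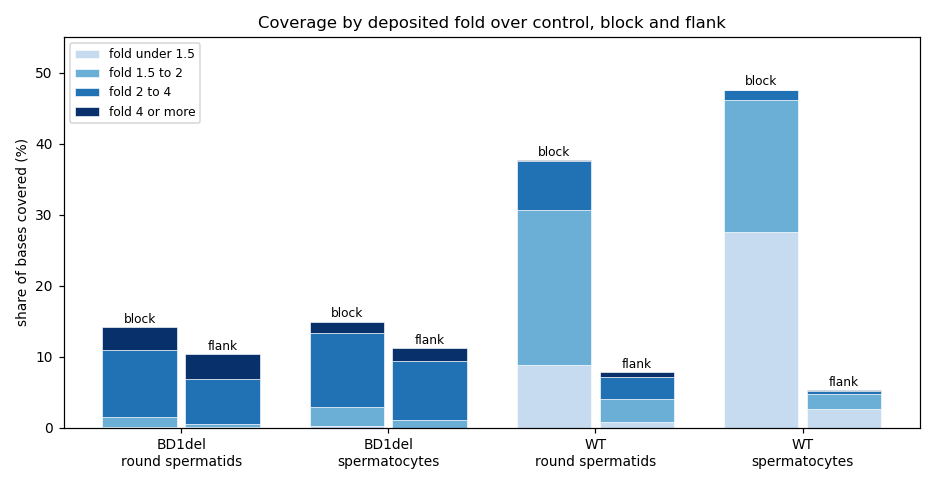
Share of bases covered (y axis, %) in the block and in the flank for each list, with bars stacked by the deposited fold of the islands. The wild-type bars of the block consist mainly of islands with a fold under 2, 8.79% and 21.9% of the block in round spermatids and 27.6% and 18.6% in spermatocytes, whereas most of each BD1del bar comes from folds of 2 or more.

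Read as counts, a fold of at least 2 was reached by 2021 of the 2130 block islands in BD1del round spermatids, or 94.9%, where the whole list had 98.3%. In BD1del spermatocytes it was reached by 1239 of 1427, or 86.8%, where the whole list had 93.5%. In wild-type round spermatids 751 of 2416 reached it, or 31.1%, where the whole list had 75.3%, and in wild-type spermatocytes 154 of 2165, or 7.11%, where the whole list had 29.2%. The share was below that of the whole list in all 4, and the 4 flanks had 98.0%, 93.7%, 67.1% and 22.1%. The median fold of the block islands was 4.27 and 2.99 in BD1del round spermatids and spermatocytes, and 1.77 and 1.51 in wild-type round spermatids and spermatocytes. Summed over all islands, ChIP reads were 3.37 and 2.75 times the scaled control reads in the BD1del block, against 3.96 and 3.04 times in the BD1del flank. In wild type the sums gave 1.74 and 1.5 times in the block, against 2.17 and 1.58 times in the flank.

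Control reads moved with the block in some lists. Among islands of at least 1000 bases, the median density in round spermatids was 53.1 control reads per kb in the BD1del block, against 49.0 in the BD1del flank. In BD1del spermatocytes it was 59.4 in the block, against 54.7 in the flank. Wild-type round spermatids had 49.6 control reads per kb in the block, against 39.0 in the flank, a ratio of 1.27, and wild-type spermatocytes had 43.5 in the block, against 45.3 in the flank, a ratio of 0.959. The part of control density in the coverage of the block was not tested.

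Where the genotypes met, they met at many places in the block without sharing a pattern along it. Over the 210 bins of the block the covered shares of BD1del and wild type had a Spearman correlation of -0.27 in round spermatids and -0.43 in spermatocytes. Over the 210 bins of the flank the same correlations were 0.58 and 0.58. When all islands were used, the stages of one genotype were correlated in both stretches. The values were 0.74 in the block and 0.69 in the flank for BD1del, and 0.66 in the block and 0.67 in the flank for wild type. These are descriptions across bins, which share libraries, base composition and mappability and are not independent. In round spermatids the negative sign rested on the weak islands, with 0.14 when only islands of a fold of at least 2 were used. In spermatocytes that setting gave -0.10. Between the wild-type stages the block value of 0.66 fell to 0.15 with a fold of at least 2. It was 0.27 with an FDR of at most 1e-10 and 0.23 with the 10000 islands of lowest p. Between the BD1del stages the same settings gave 0.61, 0.66 and 0.40 in turn, against 0.74 with all islands.

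**Figure D4:**
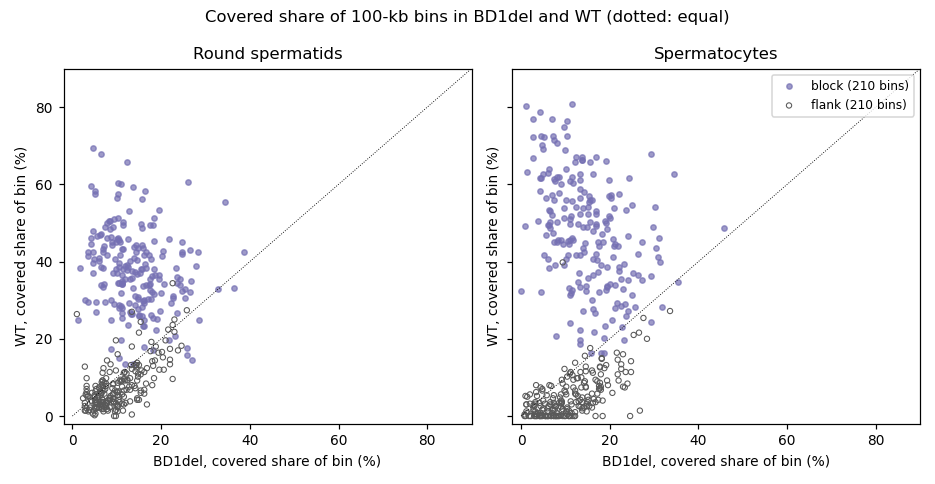
Covered share of 100-kb bins in BD1del (x axis, %) and wild type (y axis, %), for round spermatids and spermatocytes, with filled points for the block, open points for the flank and a dotted line at equality. Above the line lie 200 of 210 block bins in round spermatids and 204 of 210 in spermatocytes, against 47 and 22 of 210 flank bins.

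The bins with the largest differences were picked for that difference and are given as values. In round spermatids the bin from 13.2 to 13.3 Mb was covered to 4.60% in BD1del and 69.4% in wild type, and the bin from 20.1 to 20.2 Mb to 6.40% in BD1del and 68.0% in wild type. In spermatocytes the bin from 21.2 to 21.3 Mb was covered to 1.2% in BD1del and 80.4% in wild type, and the bin from 16.2 to 16.3 Mb to 4.20% in BD1del and 78.8% in wild type. The bins led by BD1del differed far less. In round spermatids the widest such gap was from 16.7 to 16.8 Mb, with 27.0% in BD1del and 14.4% in wild type, and in spermatocytes from 8.7 to 8.8 Mb, with 29.2% in BD1del and 24.4% in wild type. BD1del was the higher genotype in 9 of 210 bins in round spermatids and in 6 of 210 in spermatocytes. In the flank it was the higher one in 161 and 184 of 210 bins. The most covered bin of both BD1del lists was the first of the chromosome, from 3.0 to 3.1 Mb, with 38.8% in BD1del round spermatids, 45.8% in BD1del spermatocytes, 42.6% in wild-type round spermatids and 48.6% in wild-type spermatocytes. The 4 lists were close to each other in that bin but not over the first of the 5 stretches, which was covered to 17.0% and 18.3% in BD1del and 33.9% and 41.4% in wild type.

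Between the stages, the wild-type block was less covered in round spermatids than in spermatocytes. Round spermatids were the higher stage in 38 of 210 bins and spermatocytes in 170, with a median difference of -9.90 points for round spermatids minus spermatocytes. In the wild-type flank, round spermatids were the higher stage in 161 bins and spermatocytes in 44. The bins with the widest gaps in favour of spermatocytes were those from 9.6 to 9.7 Mb, with 27.0% in round spermatids and 64.0% in spermatocytes, and from 21.2 to 21.3 Mb, with 45.2% and 80.4%. The widest gap in favour of round spermatids was from 19.0 to 19.1 Mb, with 60.2% in round spermatids and 36.4% in spermatocytes. In BD1del the stages lay closer, with a median difference of -0.80 points in the block. With a fold of at least 2 the order of the wild-type stages turned, to 7.0% of the block in round spermatids and 1.44% in spermatocytes.

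With all islands, BD1del islands met wild-type islands more often in the block than in the flank. Wild-type islands met BD1del islands less often in the block than in the flank. Of the BD1del round spermatid islands of the block, 53.1% (exact 95% interval 51.0 to 55.3%, counting error only) shared at least 1 base with a wild-type round spermatid island, where the whole list had 11.2% and the flank 22.6%. Of the wild-type round spermatid islands 43.4% met a BD1del one, where the whole list had 29.1% and the flank 51.3%. In BD1del spermatocytes 65.7% of the islands (63.2 to 68.2%) met a wild-type one, where the whole list had 11.9% and the flank 21.1%. Of the wild-type spermatocyte islands 40.1% met a BD1del one, where the whole list had 35.0% and the flank 63.4%. By bases, 49.0% of the BD1del round spermatid islands lay inside wild-type islands, which covered 37.7% of the block, a ratio of 1.30. In the flank the ratio was 4.22. In spermatocytes the ratio was 1.2 in the block and 5.27 in the flank. The share of BD1del islands met by wild type was 13.8% in round spermatids and 2.99% in spermatocytes among folds of at least 2, and 10.7% and 19.5% with the FDR limit. The fold limit left wild-type islands on only 7.0% and 1.44% of the block. Under both limits the shares of the flank and of the whole lists were not computed, so block and flank cannot be compared there. A ratio of 1 is what the covered share alone gives. At the coverage of the block it could reach at most 2.65 in round spermatids and 2.10 in spermatocytes, against 9.68 and 8.95 in the flank.

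The order of the genotypes in how often the stages met depended on the islands used. With all islands the shares were higher in wild type. Of the BD1del round spermatid islands of the block 34.8% (32.8 to 36.9%) met a BD1del spermatocyte island, where the whole list had 13.9% and the flank 26.5%, and in the other direction 49.8% did, where the whole list had 24.2% and the flank 39.8%. Of the wild-type round spermatid islands 78.3% (76.6 to 79.9%) met a wild-type spermatocyte island, where the whole list had 30.3% and the flank 34.9%. In the other direction 77.7% did, where the whole list had 58.9% and the flank 68.9%. With islands of a fold of at least 2, 28.2% of the BD1del round spermatid islands and 6.52% of the wild-type ones met a spermatocyte island. Wild type stayed higher in this direction with the FDR limit (38.1% against 25.1%) and with the 10000 islands of lowest p (53.6% against 46.5%). In the other direction BD1del was the higher genotype with a fold of at least 2 (44.4% against 31.2%), with the FDR limit (39.6% against 27.8%) and with the 10000 islands of lowest p (30.7% against 11.7%). With an overlap of at least 50%, wild type was higher in both directions (70.1% against 30.3%, and 59.1% against 36.2%). Shares under these settings were not computed for the flank or the whole lists. By bases the ratio to the covered share was 3.34 in the block and 3.71 in the flank for BD1del, and 1.47 and 7.16 for wild type. At these coverages it could reach at most 6.69 and 8.95 in BD1del, and 2.10 and 12.8 in wild type. The ratios therefore do not rank the genotypes or the stretches. Fold values of overlapping islands ran in parallel less in the block than in the flank between the wild-type stages, with Spearman correlations of 0.16 over 2126 pairs and 0.50 over 297 pairs. Between the BD1del stages they were 0.43 over 775 pairs of the block and 0.38 over 543 pairs of the flank. These correlations are across island pairs, which are not independent replicates. The range of folds was also narrower in the wild-type block. From the 10th to the 90th percentile of all islands, round spermatids ran from 1.45 to 2.62 in the block and from 1.61 to 6.10 in the flank. Spermatocytes ran from 1.32 to 1.89 and from 1.35 to 2.59. The part of this range in the correlations was not tested.

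Joined over the stages, 44.4% of the block was covered in wild type and not in BD1del, against 4.78% of the flank. Bases covered in both genotypes made up 14.5% of the block and 5.35% of the flank, and bases covered in BD1del alone 7.54% of the block and 11.9% of the flank. The largest single set in the block was that of both wild-type lists and no BD1del list, with 4045.4 kb against 105.0 kb in the flank. No list covered 33.5% of the block and 78.0% of the flank.

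**Figure D5:**
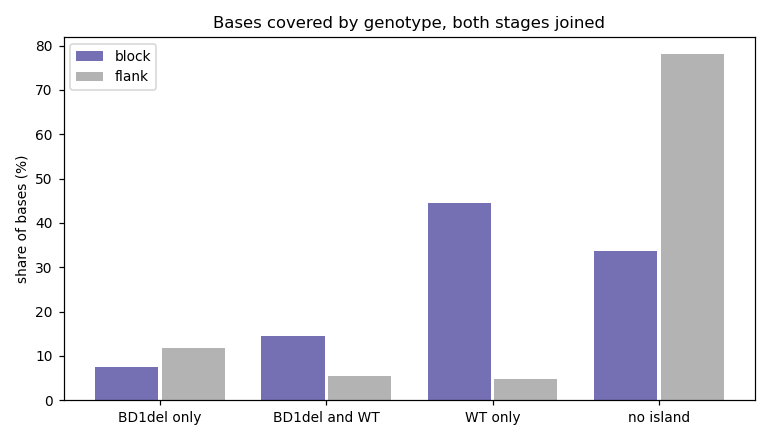
Share of bases (y axis, %) covered by islands of BD1del alone, of both genotypes, of wild type alone or of no list, with the stages of a genotype joined, in the block and in the flank. Wild type alone covers 44.4% of the block and 4.78% of the flank, whereas BD1del alone covers 7.54% and 11.9%.

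A smaller set was common to all 4 lists. Windows covered in every list formed 428 stretches of 703 kb in all in the block, or 20.4 stretches per Mb, against 213 stretches and 384 kb in the flank. Such numbers rise with coverage, by which the block was chosen. Wild-type round spermatids and spermatocytes covered 37.7% and 47.6% of the block but 7.80% and 5.26% of the flank. The larger number in the block is therefore a description, as are the shares of BD1del islands given next. The islands of the block that met an island of each other list numbered 393 in BD1del round spermatids (18.5%, whole list 3.52%), 406 in BD1del spermatocytes (28.5%, whole list 6.26%), 491 in wild-type round spermatids (20.3%, whole list 9.65%) and 518 in wild-type spermatocytes (23.9%, whole list 19.9%). The flank shares were 9.90%, 14.8%, 22.5% and 45.6%, so in wild type the block was not above the flank. Block islands of this kind were 5.53% to 7.11% of all such islands of a list. They were longer and weaker than the islands that met no other list. In wild-type spermatocytes the medians were 5400 and 2600 bases and folds of 1.47 and 1.60. In BD1del round spermatids they were 2600 and 600 bases and folds of 3.02 and 5.83. Meeting needed only 1 shared base, which a longer island reaches more easily, so these medians are descriptions. Length was not held fixed. Islands that met no other list were 21.9% and 13.8% of the block islands in BD1del, against 63.8% and 53.1% of the flank islands. In wild type they were 11.8% and 10.9% of the block islands, against 35.0% and 11.5% of the flank islands. The whole lists had 77.7% and 67.4% in BD1del and 48.9% and 24.2% in wild type.

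Only 11 of the 428 common stretches had a fold of at least 2 in all 4 lists, as did 11 of the 213 of the flank. The leading one, from 20328001 to 20328200, had a fold of 6.58 in BD1del round spermatids, 6.89 in BD1del spermatocytes, 5.21 in wild-type round spermatids and 5.59 in wild-type spermatocytes, from 16 to 24 control reads. The folds of the genotypes and stages were close to each other there. The next, from 21995801 to 21997200, had folds of 3.02, 2.88, 3.04 and 2.82. At the stretch from 11812401 to 11813000 the folds were 2.72 and 2.46 in BD1del and 4.29 and 5.86 in wild type, and the wild-type spermatocyte island there was the strongest of that list in the block, with 203 ChIP and 62 control reads.

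The strongest islands by fold were 200 to 2000 bases long in BD1del. With at least 10 control reads, the highest fold in BD1del spermatocytes was 61.0, in a single window from 12634801 to 12635000 with 249 ChIP and 23 control reads, which lay inside an island of each other list. The next was 43.9, from 14809601 to 14810000, which also met every other list. In BD1del round spermatids the highest was 20.8, from 18699001 to 18699400, inside islands of both wild-type lists but of no BD1del spermatocyte island, and the next was 19.6, from 10468201 to 10470200, with 223 ChIP and 62 control reads. In wild-type round spermatids the 3 strongest islands, at 5393001, 4583001 and 12540201 with folds of 8.52, 8.21 and 7.32, had no overlap with the remaining lists. The 3 strongest of wild-type spermatocytes, with folds of 5.86, 5.59 and 5.47, each met islands of both BD1del lists.

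The stretches of chromosome 14 from 3 to 9 Mb and of X from 24 to 33 Mb were set beside the block. Both were set apart as blocks of these same lists, as the chromosome 1 block was. Higher coverage in wild type, found in all 3, is therefore a description and not independent support. The same holds for the counts of bins given below. Wild-type round spermatids and spermatocytes covered 41.7% and 67.3% of the chromosome 14 stretch. On X they covered 11.0% and 66.0%, so that stretch was dense in wild-type spermatocytes only. In BD1del round spermatids and spermatocytes the shares were 13.0% and 5.77% on chromosome 14 and 5.04% and 4.25% on X. Wild type was the higher genotype in 57 of 60 bins at both stages on chromosome 14, and in 76 and 90 of 90 bins on X. Over 60 bins of 100 kb on chromosome 14, the correlation of BD1del with wild type was 0.33 in round spermatids and -0.0031 in spermatocytes, and over 90 bins on X it was 0.26 and 0.43. The value of -0.27 for round spermatids in the chromosome 1 block was 0.14 with a fold of at least 2 and 0.25 with the 10000 islands of lowest p, settings not run for the other stretches. In wild-type spermatocytes, islands of at least 10 kb numbered 154 of 2165 in the chromosome 1 block, 144 of 312 on chromosome 14 and 164 of 703 on X. These differences have no test.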

How the data were processed

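Per the submitters' processing notes, the authors made the lists with SICER on mm9. Window (200 bases), gap (600 bases) and FDR limit (0.01) are those in the names of the deposited lists, and the highest FDR in each list was just under that limit. The SICER version, aligner, read filters and input used as control are not given in the sources used here. One ChIP library made each list. The lists have no header, so columns were read by SICER's usual layout. Deposited ChIP and control counts are whole reads per island. Deposited p-values and FDR values were used as the authors gave them. In the deposited fold, ChIP over control reads is divided by 1 constant per list, taken as the library ratio (0.184, 0.177, 0.264 and 0.559).

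Python 3.11.15, numpy 2.4.6, pandas 2.3.3 and scipy 1.17.1 were used. Coordinates are 1-based. Coverage was counted in windows of 200 bases, islands being cut at the limits of a stretch, and in bins of 100 kb. Islands met when they shared at least 1 base. Intervals are exact (Clopper-Pearson) 95% binomial intervals of counting error only; neighbouring islands are not independent. Counting was checked on simulated lists. Named regions were, per list, the 3 highest folds among islands having 10 or more control reads, the 3 longest and the 3 with most ChIP reads, per comparison the 3 leading islands the other list lacks and the 3 bins of largest difference in each direction, and the 5 common stretches of highest lowest fold; the leading ones are given. The block, these rules and the alternatives were chosen with earlier results of these data known. As alternatives, islands were limited to FDR values up to 1e-10, to folds from 2 upwards or to 10000 per list by p; the 1% of islands densest in control reads were removed; an overlap of 50% was required; bins of 50 kb and all of chromosome 1 beyond 24 Mb as flank were also used. Inputs entered only as control counts.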

Additional observations from a re-analysis of the deposited data

Results flagged for a closer look

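In 2 measures of the block, the same contrast had opposite signs in the 2 groups compared, with 1 library each and no test of the difference. The median control density of islands of at least 1000 bases differed by -6.33 reads per kb between round spermatids and spermatocytes in BD1del and by 6.08 in wild type, so that the contrasts were -12.4 apart. The median ChIP density of the same islands differed by 4.92 reads per kb between BD1del and wild type in round spermatids and by -8.33 in spermatocytes, 13.3 apart. Both densities scale with library depth.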

How the results depend on the processing

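No paired analysis was possible because each group had 1 library. Block coverage exceeded flank coverage in all 4 lists under every alternative. In the order BD1del round spermatids, BD1del spermatocytes, wild-type round spermatids, wild-type spermatocytes, the ratio was 1.35, 1.26, 3.30 and 14.2 with an FDR of at most 1e-10, 1.30, 1.2, 1.85 and 2.57 with a fold of at least 2, 1.46, 1.55, 2.77 and 13.0 with 10000 islands per list, and 1.35, 1.31, 4.89 and 8.57 with all of chromosome 1 beyond 24 Mb as flank. The difference in covered share of the block, in points, is given for 4 contrasts in turn: BD1del minus wild type in round spermatids and in spermatocytes, then round spermatids minus spermatocytes in BD1del and in wild type. The FDR limit gave 3.20, -4.56, 0.174 and -7.58, the fold limit 5.70, 10.6, 0.647 and 5.56, and 10000 islands -0.742, -12.1, -1.37 and -12.8, where all islands gave -23.5, -32.7, -0.753 and -9.89. The sign thus turned in 2 contrasts with the FDR limit and in 4 with the fold limit. The share of islands met is given for BD1del by wild type in round spermatids and in spermatocytes, and for round spermatids by spermatocytes in BD1del and in wild type. It was 10.7%, 19.5%, 25.1% and 38.1% with the FDR limit, 13.8%, 2.99%, 28.2% and 6.52% with the fold limit, 12.1%, 34.6%, 46.5% and 53.6% with 10000 islands, and 45.8%, 56.1%, 30.3% and 70.1% with an overlap of at least 50%. The percentage of bins more covered in BD1del than in wild type turned to 68.1 (FDR limit) and 80.5 (fold limit) in round spermatids and to 94.3 (fold limit) in spermatocytes. For round spermatids over spermatocytes it turned to 50.5 (FDR limit) and 53.3 (fold limit) in BD1del and to 90 (fold limit) in wild type. The bin correlation of the genotypes in round spermatids turned to 0.060, 0.14 and 0.25 with the FDR limit, the fold limit and 10000 islands. Removing the 1% of islands densest in control reads moved none of the 24 results beyond its interval, or a correlation by 0.1. The fold and FDR limits remove weak islands by construction. The part of library depth in these changes was not tested. The alternatives for covered differences and correlations were chosen after the data were examined.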

Other observations

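The wild-type island with the most ChIP reads lay in the same stretch at both stages. The island from 16060201 to 16065000 in wild-type round spermatids had 13273 ChIP and 26214 control reads, 6.22% of the ChIP reads and 5.63% of the control reads of all block islands, at a fold of 1.92. The wild-type spermatocyte island from 16058801 to 16065200 had 14154 ChIP and 14310 control reads, 3.54% and 3.0% of those of all block islands, at a fold of 1.77. Islands of BD1del spermatocytes covered the first of these stretches to 100%, and those of BD1del round spermatids to 0%. Without its island of most ChIP reads, the summed fold of the block was 1.73 in wild-type round spermatids and 1.49 in wild-type spermatocytes, against 1.74 and 1.5 with it. Islands with at least 500 control reads per kb numbered 4 in wild-type round spermatids, 1 in wild-type spermatocytes and 0 in both BD1del lists of the block. In wild-type round spermatids the island with the next most ChIP reads ran from 10465601 to 10473200, with 2689 ChIP and 5860 control reads, and enclosed the BD1del round spermatid island of fold 19.6 that starts at 10468201.

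Within a list, bins with more coverage had lower folds in the flank and, except in wild-type spermatocytes, in the block. The Spearman correlation of a bin's covered share with the summed fold of its islands was -0.72 in BD1del round spermatids, -0.46 in BD1del spermatocytes, -0.42 in wild-type round spermatids and -0.06 in wild-type spermatocytes in the block, and -0.68, -0.56, -0.56 and -0.36 in the flank. With the control reads per kb of its islands it was 0.43, 0.43, 0.22 and 0.09 in the block. These are descriptions across bins of single libraries.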
